A study of Homo sapiens with 12 samples.

Results

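The genes described here are the nuclear-encoded subunits of the mitochondrial respiratory chain and ATP synthase, read in cardiomyocytes grown on a conductive or a non-conductive scaffold. They were taken by name from the 60583 gene names of the count table, using the NDUF, SDH, UQCR, COX4 to COX8 and ATP5 families. Of 237 matching names, 150 antisense or pseudogene names were set aside. Of the 87 left, 76 had at least 1000 counts over the 12 libraries and form the set, 75 of them coding subunits and 1, NDUFA6-DT, a noncoding transcript divergent from NDUFA6. The count minimum used the level of each gene but neither the scaffold nor the replicate. Just inside it were NDUFA6-DT (1277 counts), NDUFV2 (1351) and NDUFA4L2 (1988), and just outside it NDUFA13 (812), NDUFA7 (258), UQCRHL (191) and COX7A1 (108). By complex the coding members numbered 34 in complex I, 4 in complex II, 8 in complex III, 14 in complex IV and 15 in complex V. NDUFA4 and NDUFA4L2 were counted with complex IV, where NDUFA4 is now placed, and not with complex I as their names imply. All 76 passed the filter on low counts and were among the 21298 genes tested.

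The cells were cardiomyocytes made from RUES2, a wild-type human embryonic stem cell line, and kept in RPMI medium with B27 and insulin. At day 50 they were moved for 3 days to electrospun scaffolds of 8% polyvinyl alcohol (PVA), the non-conductive control, or of 9.75% PEDOT:PSS/PVA, which conducts (PEDOT). Each scaffold had 3 biological replicates with 2 technical libraries each, made from total RNA after ribosomal depletion. The labels do not say whether a biological replicate is a separate differentiation, or what separates its technical libraries, so p-values measure the spread between these samples only. Read pairs assigned to genes numbered 19117192 to 30954829 per library. Each pair of technical libraries was summed, which gave 6 samples of 44487633 to 57493893, and levels are CPM, the counts of a gene scaled to the TMM-adjusted total of its sample. Samples that carried the same replicate number on the PVA and PEDOT scaffolds deviated together, with correlations of 0.503 to 0.703 across genes, against -0.609 to -0.005 for different numbers. Deviations were taken from the mean of the 3 samples of a scaffold. Values above 0 for the same number therefore push those for different numbers below 0.

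As background, complexes I and II pass electrons from NADH and succinate to ubiquinone. Complex III passes them on to cytochrome c, and complex IV, cytochrome c oxidase, to oxygen. Complexes I, III and IV pump protons, and complex V, ATP synthase, uses the gradient to make ATP. Most subunits are encoded in the nucleus and meet a small core that mitochondrial DNA encodes, so that both genomes supply each complex except complex II. Heart muscle is rich in these proteins, and several complex IV genes have a second isoform: COX6A2 and COX7A1 are the heart and skeletal muscle forms beside COX6A1 and COX7A2, COX4I2 is known from lung and hypoxia, COX6B2 and COX8C from testis, and NDUFA4L2 is a hypoxia-induced relative of NDUFA4. Transcription factors known for these promoters are NRF1, the ETS factor GABPA and YY1, while MEF2 factors act on many muscle genes.

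Promoters from RefSeq (GRCh38.p14) were searched on both strands for the NRF1 motif (GCGC, any 2 bases, GCGC), the ETS motif (CCGGAAG), the YY1 motif (CAAGATGG), the MEF2 motif (CTA, any 4 bases, TAG) and the E-box (CANNTG). The 250 bases before the RefSeq start are printed for 4 members on which the results below turn. NDUFA3 and UQCRQ are a complex I and a complex III member with clear differences between replicate numbers, and COX6A1 and COX6A2 are the common and the muscle isoform of 1 subunit. Capitals mark matches to the first 4 motifs on either strand.
NDUFA3, chr19:54102605-54102854, plus strand: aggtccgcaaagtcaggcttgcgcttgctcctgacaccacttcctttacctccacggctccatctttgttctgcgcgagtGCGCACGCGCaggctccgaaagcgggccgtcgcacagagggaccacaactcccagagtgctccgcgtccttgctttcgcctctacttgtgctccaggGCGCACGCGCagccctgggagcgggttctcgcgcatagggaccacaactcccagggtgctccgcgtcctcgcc
UQCRQ, chr5:132866392-132866641, plus strand: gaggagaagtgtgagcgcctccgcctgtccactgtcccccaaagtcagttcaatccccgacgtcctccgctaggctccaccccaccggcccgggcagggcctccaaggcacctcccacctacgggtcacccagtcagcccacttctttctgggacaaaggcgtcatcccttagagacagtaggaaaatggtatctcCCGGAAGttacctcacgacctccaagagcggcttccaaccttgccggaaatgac
COX6A1, chr12:120437863-120438112, plus strand: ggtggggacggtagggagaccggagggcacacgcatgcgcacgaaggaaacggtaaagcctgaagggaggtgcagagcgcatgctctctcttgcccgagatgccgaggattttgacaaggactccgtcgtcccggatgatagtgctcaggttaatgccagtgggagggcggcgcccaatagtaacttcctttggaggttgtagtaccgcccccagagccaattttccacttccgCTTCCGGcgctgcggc
COX6A2, chr16:31428361-31428610, minus strand: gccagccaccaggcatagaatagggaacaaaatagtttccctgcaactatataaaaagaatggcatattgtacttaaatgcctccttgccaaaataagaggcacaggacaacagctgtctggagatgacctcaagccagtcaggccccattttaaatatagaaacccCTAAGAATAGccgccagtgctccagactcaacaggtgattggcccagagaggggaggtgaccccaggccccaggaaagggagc
NDUFA3 held a pair of NRF1 matches, starting at -170 and -73 from the start site. UQCRQ held an ETS match at -54 and COX6A1 one at -16, while the only marked match of COX6A2 was to the MEF2 pattern as searched, at -83. This pattern takes any 4 middle bases and fixes the letters at both ends. It can thus mark stretches that a stricter MEF2 consensus leaves out, and miss others that such a consensus takes.

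RefSeq windows of 300 bases, from 250 before to 50 after the start, were found for 62 of the 75 coding members, 76 windows in all. Among these windows, 21.1% held the NRF1 motif, against 12.4% of the 18090 windows of genes tested and 8.32% of all 35116 windows. The ETS motif was in 26.3% (14.9% and 10.3%) and the YY1 motif in 10.5% (2.71% and 2.19%). Any of the 3 was in 50% of member windows, 26.8% of windows of genes tested and 18.7% of all. The MEF2 pattern as searched, in 2.63% (2.22% and 2.73%), was found in a window of COX6A2 and one of COX7A2. The E-box was in 64.5% (62.5% and 68.7%). By complex, the NRF1 motif was in 4 of 7 windows of complex III and in 0 of 15 of complex IV. Matches of NRF1, ETS, YY1 and MEF2 did not overlap one another in any member window. The median GC content was 59% in member windows, 64% in windows of genes tested and 58.7% in all. These are matches of letters only and were not tested.

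Complex V genes took the largest part of the counts. The subunits together took 7004 (PVA 1), 10575 (PVA 2) and 9207 (PVA 3) CPM on PVA against 7801, 9576 and 9136 on PEDOT for numbers 1 to 3. The number 1 samples were the lowest on both scaffolds and the number 2 samples the highest. Per gene and not corrected for length, the mean over the 6 samples ran from 4.58 CPM (NDUFV2, an iron-sulphur subunit of complex I) to 1279 CPM (ATP5F1B, the catalytic beta subunit of ATP synthase), with a median of 69.5 CPM. ATP5F1B and ATP5F1A, the alpha subunit beside it, made up 22.9% of the CPM of all subunits. Per kilobase of annotated exon, the highest members were ATP5F1B in complex V (572 CPM per kb), COX8A in complex IV (268), UQCR10 in complex III (104), NDUFB3 in complex I (74.8) and SDHB in complex II (37.3). The lowest were NDUFV2 (1.69), NDUFA4L2 (2.36), SDHA (6.06), UQCRB (7.99) and ATP5F1E (15.6). The deposited length counts every annotated exon of a gene, used or not, so these values understate genes with many unused exons.

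No subunit differed between the scaffolds by the test. In edgeR's quasi-likelihood fit 0 of 76 members were called (adjusted p under 0.05), where 0% of all genes were called. At an unadjusted p under 0.05 there were 0 members, against 0.892% of all genes. This fit leaves the differences between replicate numbers in its residual spread, which widens its standard errors. Over the coding subunits they ran from 0.10 to 0.47, against 0.06 to 0.15 with the replicate number as a block. DESeq2 also called 0 members. With the replicate number as a block, 0 members and 0.268% of all genes (57) were called. Of the 75 coding subunits 29 had a log2 fold change (PEDOT over PVA) above 0 and 46 below, with a median of -0.02 against -0.01 over all genes, and 67 lay within 0.1 of 0. The medians were -0.01 in complex I, 0.01 in complex II, -0.01 in complex III, -0.02 in complex IV and -0.02 in complex V. Apart from NDUFA4L2, COX6A2 and ATP5F1E, the other 72 subunits had blocked log2 fold changes between -0.11 and 0.14, with standard errors of 0.06 to 0.15. The 3 PEDOT samples stood clear of the 3 PVA samples for 1 member, the noncoding NDUFA6-DT, against 4.6% of all genes. It was higher on PEDOT, as were 2.28% of all genes by this measure, and 0 members were lower, against 2.31%. Its levels were 4.01, 3.83 and 3.99 CPM on PVA against 4.61, 4.48 and 4.98 on PEDOT.

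**Figure D1:**
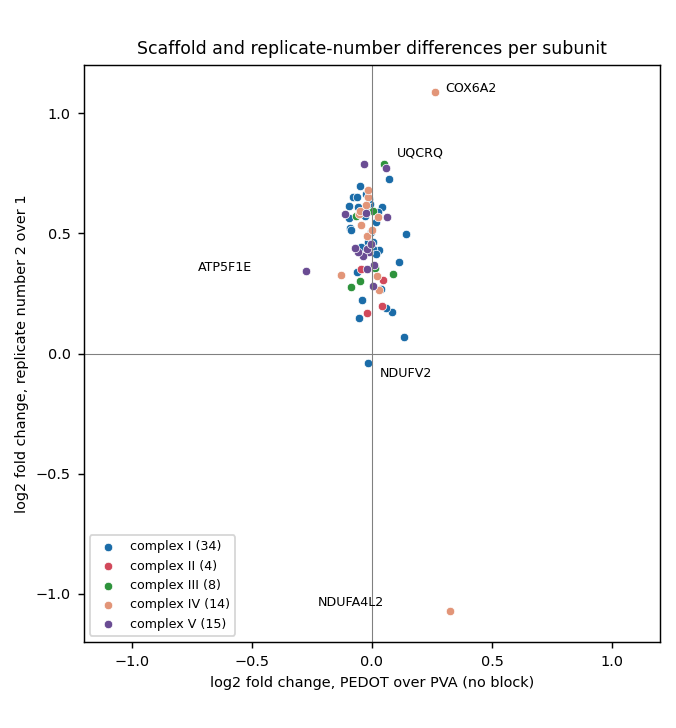
Each point is 1 of the 75 coding subunits, coloured by complex, with its log2 fold change between scaffolds (PEDOT over PVA, without the block) on the x axis and between replicate numbers 2 and 1 on the y axis, on the same scale. The points form a narrow vertical band: the scaffold values run from -0.27 to 0.32, and 73 of the 75 values between numbers are above 0.

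The catalytic core of complex I carries electrons from NADH along flavin and iron-sulphur centres. NDUFV1, which binds NADH and flavin, was at 96.3, 164 and 136 CPM on PVA against 112, 149 and 143 on PEDOT, and NDUFS1, the largest iron-sulphur subunit, at 292, 384 and 391 CPM and 360, 356 and 393 CPM. Their log2 fold changes were 0.02 ± 0.21 (SE) and 0.06 ± 0.13. For both genes the PVA sample of number 1 was the lowest of the 6, and the groups overlapped. NDUFS7 and NDUFS8, which carry iron-sulphur centres, were at 0.04 ± 0.21 and 0.00 ± 0.17. The smallest p in complex I belonged to NDUFA9 (0.13 ± 0.10) and NDUFA11 (0.14 ± 0.19), both accessory subunits. NDUFA9 was at 24.9, 27.8 and 30.0 CPM on PVA against 29.7, 29.3 and 31.7 on PEDOT, and was higher on PEDOT in each replicate number.

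In complex II, SDHA, the flavoprotein that oxidises succinate, was at 43.7, 58.4 and 54.5 CPM on PVA against 48.6, 55.6 and 57.6 on PEDOT (log2 fold change 0.05 ± 0.13). SDHB, its iron-sulphur partner, was at -0.05 ± 0.14 and SDHC, a membrane anchor, at 0.04 ± 0.10. In complex III, UQCRFS1, the Rieske iron-sulphur protein, was at 148, 207 and 185 CPM on PVA against 159, 165 and 185 on PEDOT (-0.09 ± 0.14), the largest gap lying in number 2. UQCRC1, a core protein, was at -0.02 ± 0.17, and UQCR11, a small subunit, at 0.09 ± 0.15. In complex V, ATP5F1B was at 1002, 1496 and 1387 CPM on PVA against 1091, 1279.8 and 1418 on PEDOT (-0.04 ± 0.18), and ATP5F1A at -0.01 ± 0.17. The groups overlapped for each of these genes. ATP5MC1, ATP5MC2 and ATP5MC3 encode the same mature c subunit of the rotor ring, and their values were -0.03 ± 0.26, -0.06 ± 0.15 and -0.02 ± 0.17.

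ATP5F1E, the epsilon subunit of the ATP synthase stalk, had the most negative log2 fold change of the set. Its levels were 76.1, 94.7 and 89.8 CPM on PVA against 65.5, 84.9 and 65.4 on PEDOT. It was lower on PEDOT in each replicate number, by log2 differences of -0.22, -0.16 and -0.46. Number 2 was high on both scaffolds, and the groups overlapped. The log2 fold change was -0.27 ± 0.14 without the block and -0.28 ± 0.07 with it, and neither was called (edgeR adjusted p 1.00 and 0.174). With 1 of the 12 libraries left out in turn, the blocked value stayed between -0.32 and -0.24, with adjusted p from 0.0857 to 0.451. In the blocked fit 3 members (ATP5F1E, COX6A2 and NDUFA4L2) had an unadjusted p under 0.05, beside 8.32% of all genes and 10.1% of genes with at least 1000 counts. A difference of 1 sign in the 3 replicate numbers was seen for 10 of 76 members, against 28.9% of all genes.

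Within replicate numbers the whole set shifted together, and in opposite directions. In number 1 the PEDOT sample was higher for 68 of 76 members, where 49.7% of all genes were higher, with a median log2 difference of 0.15. In number 2 it was higher for 11 members (45.4% of all genes) and lower for 65, with a median of -0.10. In number 3 it was higher for 26 (51.1%) and lower for 50, with a median of -0.03. Each complex followed this order: the medians in numbers 1 and 2 were 0.13 and -0.09 in complex I, 0.15 and -0.11 in complex II, 0.17 and -0.14 in complex III, 0.18 and -0.11 in complex IV and 0.15 and -0.15 in complex V. Over the whole set these shifts were no larger than the largest median difference of the members between technical libraries of 1 sample. Among the 6 samples these median differences ran from -0.17 (PVA 3) to 0.16 (PEDOT 1). In PVA 2 and PEDOT 2 they were -0.039 and -0.055, smaller in size than the shift of number 2. By complex the technical medians reached 0.18 in size in complex I, 0.11 in II, 0.14 in III, 0.24 in IV and 0.16 in V. The shifts of number 1 were larger than this in complexes II and III and smaller in I, IV and V. In number 2 those of complexes II and III were also larger. Against the technical medians of PVA 2 and PEDOT 2 alone, the number 2 shift was larger in size in each complex. It was -0.11 against 0.102 and 0.0885 in complex II, and -0.15 against -0.025 and -0.0167 in complex V. The 3 numbers have 1 sample a scaffold each, so that these differences carry no test.

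**Figure D2:**
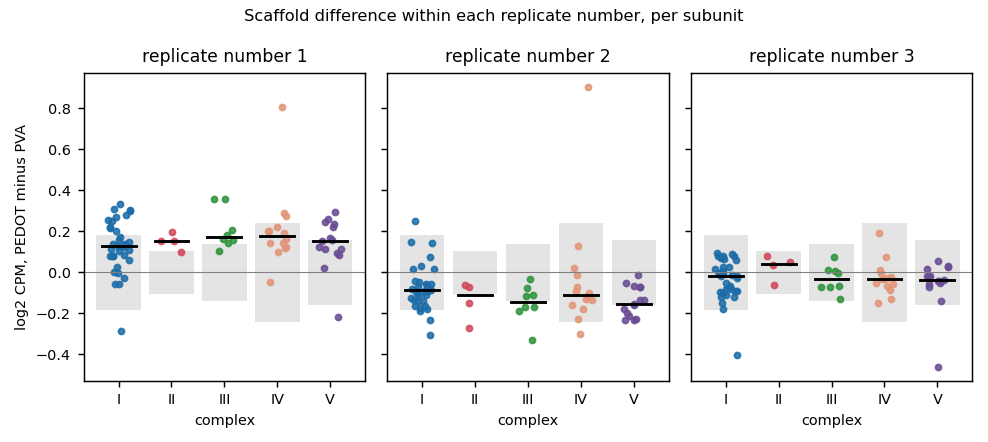
Each panel is a replicate number and each point a coding subunit, placed by complex (x axis), with its log2 CPM on PEDOT minus that on PVA (y axis). Bars are the medians of each complex, and the grey boxes span the largest median difference between technical libraries of the same complex, from 0.11 (complex II) to 0.24 (complex IV), above and below 0. The boxes take the largest value over the 6 samples and are the same in each panel. Points lie mostly above 0 in number 1 and mostly below 0 in number 2, and the bars of complexes I, IV and V stay within their boxes. In number 2 each bar was nevertheless larger in size than the technical medians of PVA 2 and PEDOT 2 for its complex.

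The set varied most between replicate numbers. A test of the 3 numbers with the scaffold in the model called 62 of 76 members, against 31.8% of all genes and 40.6% of genes with at least 1000 counts. Of these, 61 were higher in number 2 than in number 1 (14.6% of all genes and 20.4% of those with at least 1000 counts). Number 2 was the highest and number 1 the lowest for 59 (8.61% and 12.6%). Over the coding subunits the median log2 difference of number 2 from number 1 was 0.47 (1.38-fold), that of number 3 from number 1 was 0.27, where the medians over all genes were -0.00 and -0.01. Each scaffold alone showed this order: on PVA 73 of 75 subunits were higher in number 2 than in 1 (median 0.60) and on PEDOT 70 (median 0.35). Both number 1 samples lay below all 4 others for 59 members, against 16.9% of all genes. With other scalings of library size the median was 0.44 to 0.47, with 62 members called under each. Leaving out 1 technical library gave 55 to 68 called members.

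**Figure D3:**
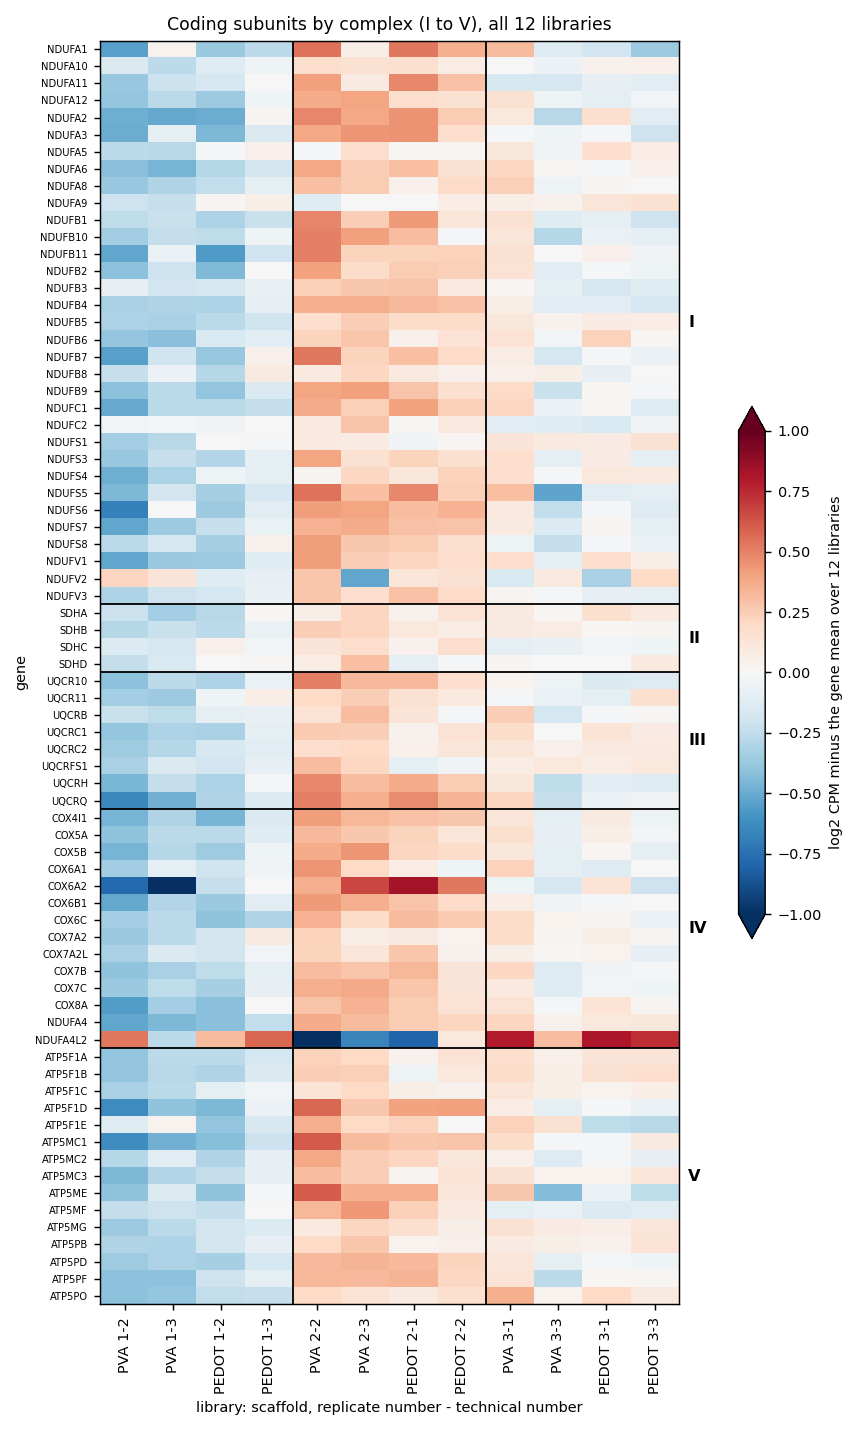
Rows are 74 coding subunits grouped by complex, columns the 12 libraries ordered by replicate number, then scaffold, then technical library. Colour is the log2 CPM of the library minus the mean of the gene over the 12 libraries, from blue (low) to red (high), with values beyond 1 shown at the end of the scale. The 4 libraries of number 1 are mostly blue and those of number 2 mostly red in each complex, and NDUFA4L2 runs the other way.

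By complex the test called 28 of 34 members of complex I, 2 of 4 of complex II, 6 of 8 of complex III, 12 of 14 of complex IV and 14 of 15 of complex V. The medians of number 2 over number 1 were 0.51, 0.25, 0.40, 0.55 and 0.43. In complex I, NDUFA3, a small accessory subunit of the membrane arm, was at 30.4 and 30.9 CPM in number 1 (PVA, then PEDOT), 50.1 and 46.4 in number 2 and 36.8 and 34.9 in number 3. Its log2 difference of number 2 from number 1 was 0.65 ± 0.08 (SE, edgeR adjusted p across the 3 numbers 0.000108). The number 2 samples were the highest and the number 1 samples the lowest, with no overlap. Split by name after the values were seen, the medians were 0.51 for 10 NDUFA genes, 0.51 for 11 NDUFB genes, 0.54 for 8 NDUFS genes, 0.41 for 3 NDUFV genes and 0.39 for 2 NDUFC genes. The 6 coding members of complex I that were not called were NDUFA5, NDUFA9, NDUFB8, NDUFC2, NDUFS1 (0.19 ± 0.10) and NDUFV2.

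Complex II, the only one with no mitochondrially encoded subunit, had the smallest median. SDHB was at 72.4 and 77.6 CPM in number 1, 101 and 91.0 in number 2 and 91.2 and 87.5 in number 3 (0.35 ± 0.08), and SDHA was at 0.31 ± 0.08. Both were called, and the membrane anchors SDHC (0.20 ± 0.08) and SDHD (0.17 ± 0.10) were not. In complex III, UQCRQ, a small subunit beside cytochrome b, was at 36.9 and 47.2, 73.3 and 71.7, and 55.6 and 52.9 CPM (0.79 ± 0.10), and UQCRH, the hinge protein, at 0.59 ± 0.09. UQCRC1 was at 0.44 ± 0.09. UQCR11 and UQCRFS1 were not called, at 0.33 ± 0.11 and 0.28 ± 0.10. Whether complexes differed from one another was not tested.

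Complex V held some of the largest differences. ATP5MC1 was at 60.9 and 72.1 CPM in number 1, 122 and 108 in number 2 and 95.5 and 92.2 in number 3, a log2 difference of 0.79 ± 0.10. The other c subunit genes, ATP5MC2 and ATP5MC3, were at 0.42 ± 0.08 and 0.43 ± 0.10. ATP5F1D, the delta subunit, was at 68.7 and 84.3, 131 and 130, and 98.4 and 96.0 CPM (0.77 ± 0.09, edgeR adjusted p 4.89e-05). The catalytic pair ATP5F1A and ATP5F1B was at 0.42 ± 0.09 and 0.41 ± 0.10, and in number 3 ATP5F1B was as far above number 1 (0.42 ± 0.10). ATP5ME was at 0.58 ± 0.11, ATP5F1E at 0.34 ± 0.09, and ATP5F1C, the gamma subunit, was the 1 complex V member that was not called (0.28 ± 0.09).

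In complex IV, COX4I1, a regulatory subunit, was at 125 and 134 CPM in number 1, 211 and 197 in number 2 and 166 and 166 in number 3 (0.65 ± 0.08, edgeR adjusted p 8.33e-05). NDUFA4 was at 182 and 203, 321 and 296, and 279 and 274 CPM (0.68 ± 0.09, edgeR adjusted p 8.09e-05). Both genes had their lowest samples in number 1 and their highest in number 2. COX8A (0.57 ± 0.09) and COX6B1 (0.62 ± 0.09) were called with them, as was COX7A2L (0.32 ± 0.08), a factor of supercomplex assembly.

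The muscle isoform COX6A2, at chr16:31427731-31428360 on the minus strand (hg38), had the largest difference of the coding subunits between numbers 2 and 1. It was at 10.1 and 17.6 CPM in number 1, 27.6 and 30.2 in number 2 and 17.6 and 18.6 in number 3, a log2 difference of 1.09 ± 0.15 (edgeR adjusted p 0.000146). Its common partner COX6A1 was at 29.7 and 32.2, 43.0 and 34.9, and 36.9 and 33.3 CPM (0.33 ± 0.10) and was not called (adjusted p 0.0619). Of the counts of the pair, COX6A2 took 25.3%, 39.1% and 32.3% on PVA and 35.4%, 46.4% and 35.8% on PEDOT in numbers 1 to 3. The 95% Wilson intervals, which cover counting error only, ran from 23.4% to 27.4% for the lowest share and from 44.6% to 48.2% for the highest. The PVA mean was 32.2% ± 6.88 and the PEDOT mean 39.2% ± 6.24 (SD, n = 3 each), higher on PEDOT in 3 of 3 replicate numbers. By an exact two-sided permutation test over the 20 assignments p was 0.4, where the smallest possible is 0.1, and 0.533 after Benjamini-Hochberg adjustment over the 4 shares tested. Per kilobase, COX6A2 took 57.0% ± 7.77 and 64.3% ± 5.78 (SD) of the pair. The level of COX6A2 differed between scaffolds by 0.26 ± 0.38 without the block and 0.32 ± 0.12 with it (edgeR adjusted p 1.00 and 0.448). The differences within numbers 1, 2 and 3 were 0.80, 0.13 and 0.07, and with 1 sample left out the unblocked value ran from -0.03 (without PVA 1 or PEDOT 2) to 0.68 (without PVA 2). Without number 3 on both scaffolds the blocked value was 0.45 and was called (edgeR adjusted p 0.0267). That setting also called more genes over the whole table than the blocked fit of all samples, with the counts given at the end.

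NDUFA4L2, at chr12:57234903-57240715 (hg38), was the only member called with number 2 below number 1, against 17.2% of all genes. It was at 6.67 and 7.78 CPM in number 1, 2.44 and 4.59 in number 2 and 8.50 and 9.70 in number 3 (log2 difference of number 2 from number 1 -1.07 ± 0.18, edgeR adjusted p 0.000112). Both number 2 samples lay below the other 4. Its technical libraries differed by up to 1.79 on the log2 scale, the 2 libraries of PVA 2 being at 0.965 and 3.54 CPM. Between scaffolds it had the highest log2 fold change of the set, 0.32 ± 0.47, or 0.40 ± 0.14 with the block (edgeR adjusted p 0.435), and was higher on PEDOT by 0.22, 0.90 and 0.19 in numbers 1, 2 and 3. Its share of the counts of NDUFA4 and NDUFA4L2 averaged 2.42% ± 1.47 for PVA against 2.88% ± 1.18 for PEDOT (SD, n = 3 each, exact permutation p 0.6). The share was higher on PEDOT in 3 of 3 replicate numbers, at 3.54% against 3.69% in number 1, 0.753% against 1.52% in number 2 and 2.96% against 3.42% in number 3. Without PVA 2 the difference of the means changed sign, from 0.459 to -0.372 percentage points.

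**Figure D4:**
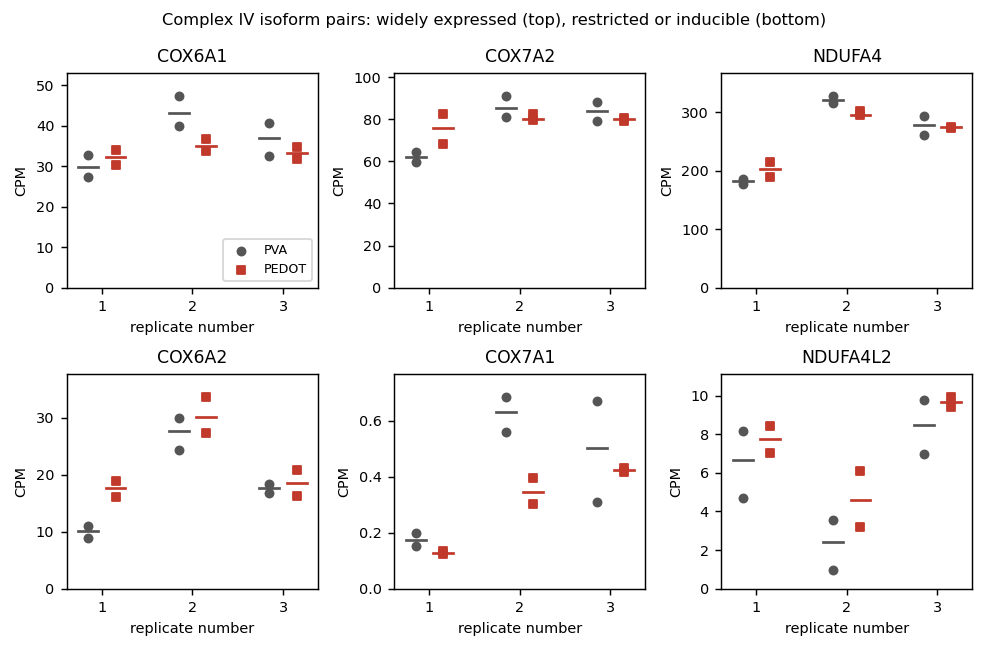
CPM of 3 pairs of complex IV genes by replicate number (x axis), with the widely expressed gene above and the restricted or inducible one below, each panel on its own linear axis from 0. Points are the technical libraries and bars the summed samples, grey circles for PVA and red squares for PEDOT. COX6A2 is highest in number 2, where NDUFA4L2 is lowest.

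The other restricted isoforms were close to absent. COX7A1, the heart and skeletal muscle form, had 108 counts in all against 23121 of COX7A2, or 0.535% ± 0.233 of the pair for PVA against 0.375% ± 0.186 for PEDOT (SD, n = 3 each, exact permutation p 0.4). Its levels were 0.173, 0.631 and 0.501 CPM on PVA against 0.128, 0.345 and 0.426 on PEDOT, lower on PEDOT in each number. COX8C had 58 counts against 39097 of COX8A (0.124% and 0.162%, exact permutation p 0.3), COX6B2 had 3 against 50648 of COX6B1 and COX4I2 had 2 against 48958 of COX4I1. The last 2 were too few to test. Among the 11 names under the count minimum, COX7B2 and the readthrough NDUFC2-KCTD14 were at 0, ATP5MGL had 101 counts and the readthrough ATP5MF-PTCD1 106, and for the names at 0, 3 counts is the limit that a count of 0 allows.

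Related gene lists were read from the same fits. Between scaffolds 0 assembly factors, mitochondrially encoded subunits, biogenesis regulators or hypoxia-response genes were called, with or without the block. Of 46 assembly factors, which build the complexes, 12 were called for the replicate number, a share below the 31.8% of all genes. All 12 were higher in number 2 than in 1 (14.6% of all genes), and the median of the list was 0.22. Of 13 mitochondrially encoded subunits 7 were called, where 31.8% of all genes were. Of these, 3 were higher in number 2 (MT-CO1, MT-CO3 and MT-ND6) and 4 lower (MT-ND1, MT-ND2, MT-ND3 and MT-ND5). The median over the list was -0.20, which weighs each gene alike. The summed level, with MT-CO1 the largest part, was 39220 and 39576 CPM in number 1 (PVA, then PEDOT). It was 50417 and 48362 CPM in number 2 and 53010 and 51259 in number 3. MT-CO1, the catalytic subunit of complex IV, was at 28091 and 28524 CPM in number 1, 38733 and 36717 in number 2 and 40495 and 40698 in number 3. MT-ND2, of complex I, was at 258 and 225, 147 and 144, and 161 and 128 CPM, the reverse order for number 1. Of 15 regulators of mitochondrial biogenesis 4 were called, again no more than the 31.8% of all genes, and all 4 were higher in number 2: ESRRA, ESRRB and ESRRG, the oestrogen-related receptors, and POLRMT, the mitochondrial RNA polymerase. PPARGC1A, the coactivator PGC-1alpha, was at 0.18 ± 0.08 and NRF1 at 0.05 ± 0.11, and neither was called.

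Of 15 hypoxia-response genes 10 were called for the replicate number, against 31.8% of all genes. Of these, 9 were lower in number 2 than in 1 (17.2% of all genes), and the median of the list was -0.50. LDHA, lactate dehydrogenase, was at 1688 and 1666 CPM in number 1, 743 and 1223 in number 2 and 1448 and 1393 in number 3 (-0.80 ± 0.15). ADM was the 1 called gene that was higher in number 2. Between scaffolds 15 of 15 had a log2 fold change above 0, where 48.1% of all genes did, with a median of 0.21. Within replicate numbers 11, 15 and 10 of 15 were above 0, with medians of 0.15, 0.71 and 0.04. Technical libraries of 1 sample differed in the median of this list by -0.90 to 0.53, so that the medians within numbers were smaller in size than the largest technical one. That largest one was in PVA 3. In PVA 2 and PEDOT 2 the technical medians were 0.42 and -0.10, smaller in size than the 0.71 of number 2.

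Several lists of cell type markers were called for the replicate number in a larger share than the 31.8% of all genes. Cardiomyocyte markers (10 of 10 tested, 9 called, 8 of them higher in number 2 than in 1) summed to 55945 to 75985 CPM on PVA and 64573 to 85760 CPM on PEDOT. Fibroblast markers (6 of 6 tested and called, 5 lower in number 2) summed to 524 to 2442 CPM on PVA and 546 to 4698 CPM on PEDOT, lowest in number 2 on both. Smooth muscle and pericyte markers (6 of 6 called, all lower in number 2) summed to 477 to 902 and 394 to 819 CPM. Epicardial markers (3 of 4 called, 2 lower in number 2) summed to 32.4 to 76.0 and 35.2 to 80.8 CPM. Cell cycle genes (3 of 5 called, all 3 highest in number 3) summed to 122 to 174 and 67.3 to 196 CPM. Their median log2 difference from number 1 was 0.07 for number 2 and 0.72 for number 3. The test takes the 3 numbers together, so a call need not rest on numbers 2 and 1. Skeletal muscle markers (2 of 4 called, 1 higher and 1 lower in number 2, and both highest in number 3) summed to 209 to 413 and 255 to 439 CPM. These sums follow CKM, which averaged 301 CPM over the 6 samples. MYOD1, MYOG and MYH3 averaged 1.41, 0.442 and 1.39 CPM. The 3 endoderm markers tested, of 4 listed, were called, 2 higher and 1 lower, at sums of 3.77 to 8.31 and 4.40 to 8.70 CPM. The marker that did not pass the filter is not in these sums, so they do not give the level of the whole list. None of the 5 endothelial markers was called (0 of 5), at sums of 17.4 to 22.1 CPM on PVA and 12.8 to 16.5 on PEDOT. KDR took most of these sums, with means of 18.1 CPM on PVA and 13.4 on PEDOT, and the other markers averaged 0.21 to 0.57 CPM. Between scaffolds 3 of the 5 had a log2 fold change above 0 and 2 below, and 0 were called. The 3 PEDOT samples lay below the 3 PVA samples for 1 marker, KDR, as for 2.31% of all genes. With the block, MYH7 of the cardiomyocyte list and RGS5 of the pericyte list were called between scaffolds. In addition, 0 of 3 pluripotency markers and 1 of 4 neural markers passed the filter. In bulk RNA, fewer cells of a type and less RNA per cell cannot be told apart, and the part of these markers in the differences between numbers was not tested. The difference of number 2 from number 1 also went with the deposited length, which counts every annotated exon of a gene. The 38 subunits that were shorter by this length had a median of 0.57 and the 37 longer ones 0.42. Spearman's rho was -0.38 across the 75 genes, which share libraries, and -0.04 across all genes tested.

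On the same strand, 23 of the 76 members shared exon bases with another gene, 53 shared none, and 0 shared more than 50%. The largest overlaps were in COX8A (35.4%), NDUFB8 (33.8%), NDUFV2 (28.4%) and SDHA (21.6%), and reads in the shared part are not assigned. The families also have many processed pseudogenes and near-identical copies such as UQCRHL beside UQCRH, and read pairs that map equally to both were not counted, so that levels of members with such copies may be understated. The size of this effect was not measured.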

How the data were processed

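Raw counts per gene name for the 12 libraries were deposited by the authors. Fragments were counted with featureCounts 2.0.1 as paired and reversely stranded against GENCODE 33 on hg38, and the command sets no flag to keep reads that map to several places or genes, per the file headers. STAR, FastQC, DESeq2 and edgeR are named in the submitters' processing notes. Technical libraries were summed to 6 samples. Genes were filtered with filterByExpr and tested with edgeR 4.0.16 (R 4.3.3; TMM, quasi-likelihood, Benjamini-Hochberg adjusted p over all genes), with the scaffold alone, with the replicate number as a block, and across replicate numbers with a scaffold term. Log2 CPM used a prior count of 2, and SE is the log2 fold change over the root of F. The scripts were tested on simulated data. Alternatives were DESeq2 1.42.0, other scalings and filters, and libraries or replicates left out. Same-numbered samples correlated (0.503 to 0.703, all above 0.1), which comes from the values and not from the labels, so that blocked values are given where they change a call. Technical libraries differed beyond counting noise (chi-square per gene 5.44 to 13.4). Members and lists were chosen with earlier results of these data known. Named genes are the complex IV isoform pairs, catalytic and c-ring genes, the members of smallest p per complex and those of highest and lowest level per kilobase. NDUFA6-DT was named after its values were seen. MT-CO1, MT-ND2, LDHA and other genes of the lists were also named after their values were seen. Protein sequences were not used here. Results for 1 complex I member and 1 marker gene are not reported here.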

Additional observations from a re-analysis of the deposited data

Results flagged for a closer look

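In 14 of the 76 members (18.4%) both PEDOT libraries lay above both PVA libraries in replicate number 1 and below both in number 2, against 4.51% of all genes tested and 6.19% of those with at least 1000 counts. In the reverse order, below in number 1 and above in number 2, there were 0 members, against 3.60% of all genes. The means of 2 complexes and 8 members that the naming rule had picked are given here; the other 6 were NDUFA8, NDUFB6, SDHD, UQCRC2, ATP5F1C and ATP5PB. Separation in opposite directions in any pair of numbers was found in 15 members (19.7%), the added one being NDUFV3, and in 16.2% of all genes. The difference between the numbers was not tested. For complex II the mean log2 CPM on PEDOT minus that on PVA was 0.15 in number 1, -0.117 in number 2 and 0.025 in number 3, and for complex III it was 0.201 in number 1 and -0.14 in number 2. In complex I the values of numbers 1 and 2 were 0.198 and -0.138 for NDUFV1, 0.309 and -0.098 for NDUFS1, and 0.29 and -0.068 for NDUFS7. In complex III they were 0.358 and -0.094 for UQCR11 and 0.153 and -0.165 for UQCRB. NDUFA4, counted with complex IV, was at 0.154 and -0.107. The c-ring genes ATP5MC1 and ATP5MC3 were at 0.229 and -0.18, and at 0.21 and -0.191.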

How the results depend on the processing

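Between scaffolds the count of called genes over the whole table was 57 with the replicate block, against 0 without it. With the replicate block and 1 replicate number left out on both scaffolds it was 170 without number 1, 22 without number 2 and 284 without number 3, and the count of called members from 0 to 1 (COX6A2, without number 3). With the replicate block alone 0 members were called. Every other alternative run, including DESeq2, other scalings and filters, single technical libraries and 1 sample left out, called 0 members. The difference in the COX8C share was 0.0383 percentage points, and -0.00767 with the lower-numbered technical libraries. That of NDUFA4L2 was 0.459, and with 1 sample left out it ranged from -0.372 (without PVA replicate 2) to 1.13. The causes were not tested. For the replicate number, 62 members were called, and 49 to 71 with 1 sample left out, which leaves 1 sample for its number. Leaving out single libraries, chosen after seeing the data, gave 55 to 68. With 3 samples a scaffold, blocked standard errors of 0.06 to 0.15 limit what could be seen for single subunits.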
